A study of Mus musculus with 6 samples.

Results

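The genes described here encode the proteins of the cytosolic ribosome, 49 of its large 60S subunit and 33 of its small 40S subunit. They were taken from the deposited comparison of lipopolysaccharide (LPS) with saline by gene symbol alone: Rpl or Rps with a number, plus Rplp0, Rplp1, Rplp2, Rpsa and Fau, without S6 kinases and pseudogene symbols. The rule found 123 of the 34472 transcript clusters, the probe groups that the array treats as 1 transcript, and these carried 82 of the 27364 symbols. Where a symbol had several clusters, the one with the highest mean over the 6 arrays was used. Rpl8, Rpl17, Rpl36 and Rps4x had no matching symbol and were not analysed here.

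All 6 samples came from CD11brGFP transgenic mice of 2 to 3 months, males and females in equal number, that express the ribosomal protein RPL10a with a Flag and EGFP tag under control of CD11b, whose promoter is used to reach microglia, macrophages and other myeloid cells. In translating ribosome affinity purification (TRAP) the tagged ribosomes are recovered with the messenger RNA they carry, and 100 ng of that RNA was labelled per sample. The control group received saline and the treated group 5 mg/kg of LPS, an endotoxin of Gram-negative bacteria sensed through TLR4, both for 24 h. Each group had 3 arrays, which the labels call biological replicates. The labels give 5 mice both for each sample and for each group, so whether the 3 arrays of a group hold different animals is not settled, and errors with n = 3 measure the spread between these arrays. Both groups carry the transgene, so no sample shows what the pull-down recovers from mice without a tag. No source used here names the tissue.

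Ribosomal proteins assemble with ribosomal RNA in the nucleolus and are made in near-equal amounts, so their messages tend to be handled as a group. Most of these messages begin with a cytosine followed by a run of pyrimidines, the 5′ terminal oligopyrimidine (TOP) tract. When the kinase mTOR is inactive, LARP1 and related proteins hold TOP messages off the ribosome, and when mTOR is active these messages return to polysomes. In macrophages TLR4 signalling feeds into mTOR, and a TRAP experiment reads the messages that are on ribosomes. The comparison here asks whether the ribosome-bound messages of ribosomal protein genes differed 24 h after LPS.

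Cluster values were deposited as log2 signals, and a difference of 1 is a 2-fold change. The 82 clusters spanned mean signals from 2.29 to 12.38 with a median of 6.80. Signals of different clusters depend on their probes and were not read as relative amounts of the genes. Ribosomal protein genes have many near-identical processed copies in the mouse genome, and the array annotation shows this: 54 of the 82 cluster descriptions named several genes, up to 13 for Rps12, and 28 named 1. Of the 82 clusters, 62 held a RefSeq accession of the gene of their symbol and 20 did not. Values of a symbol can therefore include signal from related copies.

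Both arrays numbered 3 stood apart from the others. Over all 34472 clusters the median log2 signal was 5.35 in saline 3 and 5.42 in LPS 3, against 5.15 to 5.19 in the other 4 arrays. Neuron markers, 10 of 10 measured, averaged between 11.02 and 11.21 in the saline arrays and between 11.04 and 11.18 in the LPS arrays, and microglia markers, 10 of 10 measured, between 6.52 and 6.79 after saline and between 6.24 and 6.55 after LPS. Since probes differ, these 2 lists were not ranked against each other. In bulk RNA such as this, fewer cells of a type and less RNA per cell cannot be told apart.

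The tract that gives TOP messages their name can be seen in the genome around the annotated start of these genes. RefSeq start windows of the GRCm38.p6 build were matched by symbol to 64 of the 82 genes. A cytosine followed by 7 or more cytosines or thymines, on the sense strand and beginning within 25 bases of the start, was found in 37 of the 64, or 57.8%, against 19.2% of 27025 genes. Over the 300 bases from 250 before to 50 after the start, on either strand, CCGGAAG was found in 40.6% of the 64 against 9.93% of all genes, GGGCGG in 62.5% against 38.2%, AAGATGGC in 10.9% against 3.19% and TATAAA in 10.9% against 15.7%. Since under 80% of the genes had a window, array values were not compared between genes with and without a tract. The windows below run from 10 bases before the start to 20 bases from it, with the tract in capitals, and show the brightest cluster (Rpl28), a further bright 60S gene (Rpl14), the tagged gene (Rpl10a, at both annotated starts) and the genes at the edges of the comparison.
Rpl28, chr7:4792955-4792984, plus strand: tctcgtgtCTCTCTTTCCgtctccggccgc
Rpl14, chr9:120571507-120571536, plus strand: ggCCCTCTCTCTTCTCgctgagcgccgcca
Rpl10a, chr17:28328461-28328490, plus strand: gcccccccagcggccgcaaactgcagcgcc
Rpl10a, chr17:28328555-28328584, plus strand: atttgagcgcatgcgcaaagcgctctgCCT
Rps6, chr4:86857348-86857377, minus strand: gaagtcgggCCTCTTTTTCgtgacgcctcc
Rps16, chr7:28350679-28350708, plus strand: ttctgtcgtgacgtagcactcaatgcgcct
Rps2, chr17:24720053-24720082, plus strand: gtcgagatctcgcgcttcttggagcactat
Rps15, chr10:80292421-80292450, plus strand: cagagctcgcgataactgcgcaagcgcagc
Rpl39, chrX:37085203-37085232, minus strand: gctccgcctctagcgacttcttctaatcgc
Rps6, Rpl28 and Rpl14 show the tract across the start, the second start of Rpl10a shows its beginning, and the windows of Rps16, Rps2 and Rps15 show none. The tract of Rpl39 began 20 bases before the annotated start and lies outside its window.

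No ribosomal protein gene differed detectably between LPS and saline. By limma, 0 of 82 passed an adjusted p of 0.05 in either direction, where 0.0029% of all clusters were called higher after LPS and 0.0% lower. At an unadjusted p under 0.05 the count was also 0 of 82, against 2.26% of all clusters, 1.49% higher and 0.772% lower. The lowest unadjusted p was 0.0778, for Rpl39, and the lowest adjusted p was 0.9999. The median LPS minus saline difference was 0.00 log2 units for the 82 genes and for all clusters, and the mean was 0.01 for both. The difference was positive in 42 of 82, or 51.2%, against 49.6% of all clusters.

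The spread of the differences among the genes was small. It had an SD of 0.15 over the 82 genes against 0.21 over all clusters, and ran from -0.54 for Rps15 to 0.36 for Rpl39. At a mean log2 signal of at least 8 the SD was 0.11 for these genes and 0.16 for all clusters. It was 0.16 against 0.24 at a mean of 6 to 8, and 0.19 against 0.21 under 6. The difference was 0.3 or more in size in 4 genes, Rps15, Rpl39, Rps16 and Rplp0, or 4.88% against 10.5% of all clusters. In 47 genes, or 57.3%, the difference was under 0.1 in size, against 46.2% of all clusters. The 95% interval included 0 for all 82, and for 77 of them, or 93.9%, it lay within a 2-fold change either way, as for 93.6% of all clusters. Standard errors ran from 0.14 to 0.50, and in 70 genes the difference was smaller than the SD within groups. The median standard error was 0.25 over the 82 genes and 0.19 over all clusters. A difference of a given size was therefore less readily called in these genes than in a typical cluster. The median difference was 0.00 over the 49 60S genes, 24 of them positive, and 0.01 over the 33 40S genes, 18 of them positive.

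**Figure D1:**
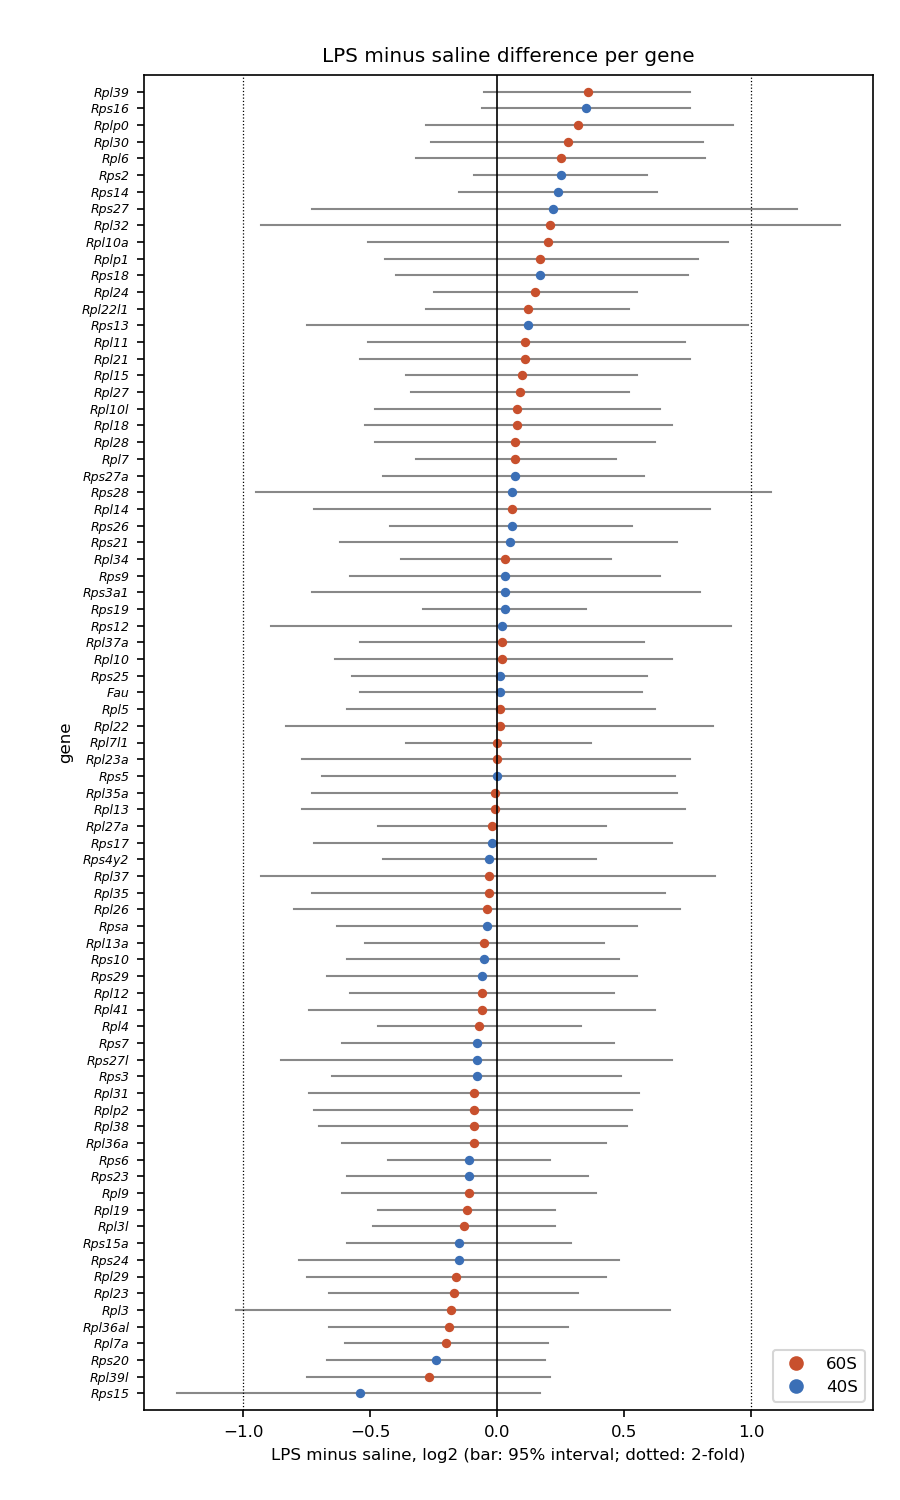
LPS minus saline difference (log2, x axis) of 79 of the 82 genes, ordered by size, with the 95% interval from limma as a bar and a 2-fold change as dotted lines. Every interval drawn crosses 0, and 60S (orange) and 40S (blue) genes are mixed along the whole order from -0.54 for Rps15 to 0.36 for Rpl39.

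The replicate numbers of the 2 groups were treated as pairs in an alternative fit. Over all clusters the deviations of same-numbered arrays met the criterion for a pairing, a correlation above 0.1. Arrays of unlike number met it too, with 0.14 for saline 1 and LPS 2 and 0.41 for saline 2 and LPS 1. The criterion therefore cannot show that the numbers mark pairs. Over the 82 genes the correlation was 0.59 for number 3, 0.11 for number 1 and -0.06 for number 2, while saline 2 correlated by 0.58 with LPS 1. With that replicate block 0 of 82 genes passed the adjusted threshold, where 0.0087% of all clusters did. At an unadjusted p under 0.05 the block gave 1 of 82, Rpl39 (limma adjusted p = 0.832), against 5.85% of all clusters. The pairs differed from each other: the mean LPS minus saline difference over the 82 genes was -0.17 in pair 1, 0.25 in pair 2 and -0.06 in pair 3. Over all clusters the same means were 0.01, 0.0 and 0.01. The difference was positive in 19 genes in pair 1, in 62 in pair 2 and in 24 in pair 3. Rpl24, Rpl39, Rpl6, Rpl7, Rps16 and Rps2 were among the 7 genes higher after LPS in all 3 pairs. Lower in all 3 were 7 genes, Rpl23, Rpl29, Rpl31, Rpl36al, Rpl39l, Rpl3l and Rps6. No share over all clusters stands beside these counts of signs, so they were not read as a result about the genes.

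In 3 genes the lowest LPS array exceeded the highest saline array, among them Rps16 and Rps2 of the 40S subunit. This is 3.66% of the 82, against 3.61% of all clusters. Rps16 sits in the head of the 40S subunit, with its tail near the peptidyl transfer RNA. Its log2 signal was 5.88, 5.80 and 5.52 in saline 1 to 3 and 5.89, 6.03 and 6.32 in LPS 1 to 3. LPS 1 lay only 0.01 above saline 1, and LPS 3 was the highest array. The difference was 0.35 ± 0.18 (SE, n = 3 arrays per group, 95% interval -0.06 to 0.76), and it was 0.12 without both arrays numbered 3.

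Rps2, at the channel through which messenger RNA enters the 40S subunit, read 6.65, 6.56 and 6.63 after saline and 6.76, 6.82 and 7.0 after LPS. Its difference was 0.25 ± 0.15 (SE, n = 3, 95% interval -0.09 to 0.59), and 0.19 without both arrays numbered 3. The 3 LPS values of Rps2 spanned more than the 3 saline values. The clusters of Rps16 and Rps2 name 2 and 5 genes. Rps16 and Rps2 kept a positive difference in every alternative run, and neither passed the adjusted threshold in any.

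Rps6, the 40S protein phosphorylated by the S6 kinases downstream of mTOR, was the only gene with all LPS arrays below all saline arrays, 1.22% of the 82 against 3.1% of all clusters. Its signal was 6.07, 6.04 and 5.95 in saline 1 to 3 and 5.90, 5.88 and 5.94 in LPS 1 to 3. LPS 3 and saline 3 were 0.01 apart, so the groups separated barely. The difference was -0.11 ± 0.14 (SE, n = 3, 95% interval -0.43 to 0.21), and it was -0.16 without both arrays numbered 3. The cluster measures the message and says nothing of the protein's phosphorylation.

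**Figure D2:**
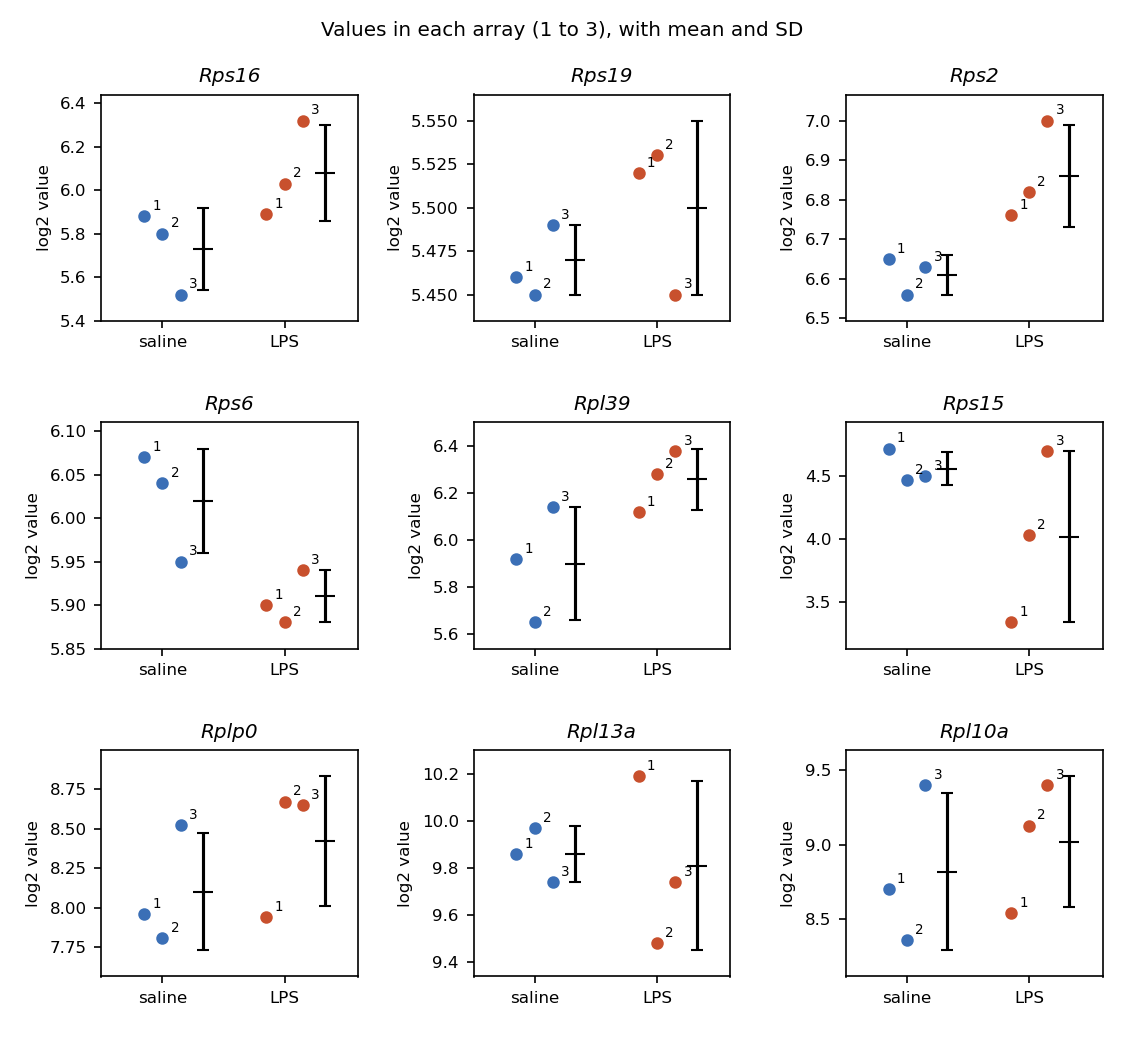
Log2 signal of 9 genes in each array (points, numbered 1 to 3 within saline in blue and LPS in orange), with the group mean and SD in black and a separate y axis per gene. LPS points lie above saline points in Rps16 and Rps2 and below them in Rps6, while the groups overlap in the other 6 genes.

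The greatest positive difference was that of Rpl39, a very small protein that lines the exit tunnel of the 60S subunit. Rpl39 read 5.92, 5.65 and 6.14 after saline and 6.12, 6.28 and 6.38 after LPS. LPS 1 lay just inside the saline range. The difference was 0.36 ± 0.18 (SE, n = 3, 95% interval -0.05 to 0.76), and it ranged from 0.23 to 0.47 as single arrays were left out. A second, dimmer Rpl39 cluster differed by 0.11 ± 0.24 (SE, n = 3). Among the next were Rps16 with 0.35, Rplp0 with 0.32, Rpl30 with 0.28, Rpl6 and Rps2 with 0.25, Rps14 with 0.24, Rps27 with 0.22 and Rpl32 with 0.21.

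Several of these came from uneven arrays. Rpl30, a 60S protein, read 5.35, 4.90 and 5.59 after saline and 5.40, 5.91 and 5.36 after LPS, where LPS 2 alone exceeded every saline array. A dimmer Rpl30 cluster differed by -0.05 ± 0.45 (SE, n = 3). Rpl32, also of the 60S subunit, had the widest interval of all 82, from -0.93 to 1.35. Its arrays read 9.33, 8.81 and 10.52 after saline and 9.20, 9.41 and 10.68 after LPS, so both arrays numbered 3 stood more than 1 log2 unit above every other array. Rps27, a zinc finger protein of the 40S subunit, read 7.06, 6.85 and 7.89 after saline and 6.59, 7.72 and 8.15 after LPS. Its lowest and highest values were both LPS arrays. Rpl6, of the 60S subunit, was higher after LPS by 0.24, 0.21 and 0.30 in the 3 pairs, with 4.47, 4.65 and 5.14 after saline and 4.72, 4.85 and 5.44 after LPS. The pair differences of Rpl6 were close to each other while saline 3 exceeded LPS 1 and LPS 2 (difference 0.25 ± 0.25 SE, 95% interval -0.32 to 0.82).

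The greatest negative difference, that of Rps15 from the 40S head, also came from uneven LPS arrays. Rps15 read 4.72, 4.47 and 4.50 in saline 1 to 3 and 3.34, 4.03 and 4.70 in LPS 1 to 3. LPS 3 was at the level of the saline arrays and LPS 1 lay far below them. The difference was -0.54 ± 0.31 (SE, n = 3, 95% interval -1.26 to 0.17). It ranged from -0.88 to -0.20 as single arrays were left out, and was -0.91 without both arrays numbered 3. Among the next were Rpl39l with -0.27, Rps20 with -0.24, Rpl7a with -0.20, Rpl36al with -0.19, Rpl3 with -0.18, Rpl23 with -0.17 and Rpl29 with -0.16. Limma p-values of these 7 genes ran from 0.226 for Rpl39l to 0.648 for Rpl3. A dimmer Rps20 cluster differed by 0.14 ± 0.36 (SE, n = 3), of opposite sign to the chosen one.

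Rpl10a is the gene whose protein carries the affinity tag, and where the transgene shares its sequence the array does not tell the endogenous message from the tagged one. Its signal was 8.70, 8.36 and 9.40 after saline and 8.54, 9.13 and 9.40 after LPS. The groups overlapped over nearly their whole range, and the array numbered 3 was the highest in each. The 95% interval of the difference ran from -0.51 to 0.91. Treatment therefore gave no detectable difference in the message of the purified subunit.

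The acidic stalk of the 60S subunit, which recruits the elongation factors, is built from Rplp0, Rplp1 and Rplp2. Rplp0, its base, read 7.96, 7.81 and 8.52 after saline and 7.94, 8.67 and 8.65 after LPS. LPS 2 and LPS 3 were above every saline array and LPS 1 was within them (difference 0.32 ± 0.26 SE, 95% interval -0.28 to 0.93). This Rplp0 cluster held no RefSeq accession of Rplp0, and a second, dimmer one differed by 0.05 ± 0.15 (SE, n = 3). The difference was 0.17 ± 0.27 (SE) for Rplp1 and -0.09 ± 0.27 (SE) for Rplp2, so the 3 stalk genes did not share a sign. The Rplp2 cluster also names a small nucleolar RNA.

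Rps27a and Fau are made as fusions, with ubiquitin and with a ubiquitin-like protein. Rps27a read 4.58, 4.51 and 5.00 after saline and 4.45, 4.71 and 5.14 after LPS, a difference of 0.07 ± 0.22 (SE, n = 3). The chosen Fau cluster read 10.53, 10.21 and 11.08 after saline and 10.43, 10.54 and 10.87 after LPS, a difference of 0.01 ± 0.24 (SE, n = 3). It held no RefSeq accession of Fau, and the dimmer cluster that did differed by 0.50 ± 0.21 (SE, n = 3), with overlapping groups. Neither gene separated the groups.

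Among the proteins with roles in p53 control, Rpl5 and Rpl11, which bind the ubiquitin ligase MDM2 when ribosome assembly is disturbed, differed by 0.01 ± 0.26 and 0.11 ± 0.27 (SE, n = 3). Rpl13a, which in human monocytes leaves the ribosome after interferon gamma to silence inflammatory messages, read 9.86, 9.97 and 9.74 after saline and 10.19, 9.48 and 9.74 after LPS. LPS 1 was the highest and LPS 2 the lowest array, a difference of -0.05 ± 0.21 (SE, 95% interval -0.52 to 0.42). The Rpl13a cluster also names a small nucleolar RNA and held no RefSeq accession of Rpl13a. A dimmer cluster that held one, and also names such an RNA, read 8.81, 8.80 and 9.12 after saline. After LPS it read 8.48, 8.69 and 8.54, a difference of -0.34 ± 0.16 (SE, n = 3). All its LPS arrays lay below all its saline arrays, as in 3.1% of all clusters.

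Rps3, which can bind the p65 subunit of NF-kB besides its place in the 40S subunit, read 9.28, 9.13 and 9.82 after saline and 9.09, 9.15 and 9.75 after LPS. The groups overlapped, with a difference of -0.08 ± 0.25 (SE, 95% interval -0.65 to 0.49). Rps19, the 40S protein most often affected in Diamond-Blackfan anaemia, was the steadiest of the genes described here: 5.46, 5.45 and 5.49 after saline and 5.52, 5.53 and 5.45 after LPS. Its difference of 0.03 ± 0.14 (SE) turned to -0.01 when quantile normalization was repeated. Rps25, needed for initiation at several viral internal entry sites, differed by 0.01 ± 0.25, Rpl38, known in mice for the translation of Hox messages, by -0.09 ± 0.26, and Rpsa, also known as the laminin receptor, by -0.04 ± 0.26 (SE, n = 3).

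Of the remaining bright clusters, Rpl28 had the highest signal, with 12.15, 12.09 and 12.78 after saline and 12.08, 12.46 and 12.70 after LPS. Rpl4 read 12.09, 11.97 and 12.41 after saline and 11.97, 12.06 and 12.23 after LPS. In both 60S genes the arrays numbered 3 were the highest of their group and the 2 groups overlapped. Rpl28 differed by 0.07 ± 0.24, Rpl4 by -0.07 ± 0.17 and Rpl23a, another bright 60S cluster, by 0.00 ± 0.33 (SE, n = 3).

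Of the 82 symbols, 8 belong to paralogs of a core gene. Their median difference was -0.06, with 3 of 8 positive, against 0.01 for the 74 core genes, and no paralog passed a limma p of 0.05. Rpl3l, known from striated muscle, differed by -0.13 ± 0.16, and Rpl3, which lies by the peptidyl transferase centre, by -0.18 ± 0.37 (SE, n = 3). The chosen Rpl3 cluster held no RefSeq accession of Rpl3, and the dimmer one that did differed by 0.07 ± 0.25 (SE, n = 3). Rpl10l, known from testis, had the dimmest cluster of all, with 2.11, 1.98 and 2.67 after saline and 1.97, 2.36 and 2.66 after LPS. Its partner Rpl10, which joins the 60S subunit late, differed by 0.02 ± 0.29, and Rpl10l by 0.08 ± 0.24 (SE, n = 3).

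Rpl39l, another paralog known from testis, read 4.77, 4.56 and 4.80 after saline and 4.03, 4.53 and 4.76 after LPS. LPS 1 alone lay below the saline range by more than 0.1, and the difference was -0.27 ± 0.21 (SE, 95% interval -0.75 to 0.21), of opposite sign to that of Rpl39. Whether the 2 differences differ was not tested. The RNA-binding pair Rpl22 and Rpl22l1 differed by 0.01 ± 0.37 and 0.12 ± 0.17, and Rps27 and Rps27l, a p53 target, by 0.22 ± 0.42 and -0.08 ± 0.34 (SE, n = 3). Rpl36a and its intronless copy Rpl36al differed by -0.09 ± 0.23 and -0.19 ± 0.20, and Rpl7 and Rpl7l1, a nucleolar relative, by 0.07 ± 0.17 and 0.00 ± 0.16 (SE, n = 3). Rps4y2, a symbol that the RefSeq table lists as a synonym of Rps4l, differed by -0.03 ± 0.18 (SE, n = 3).

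The main variation of the ribosomal protein genes lay between arrays of one group. Against the saline mean, their mean log2 signal was -0.09, -0.27 and 0.36 in saline 1 to 3 and -0.26, -0.02 and 0.30 in LPS 1 to 3. Over all clusters the same deviations were -0.07, -0.06 and 0.13 in saline and -0.06, -0.06 and 0.14 in LPS. The arrays numbered 3 were therefore the highest in both groups, and saline 2 and LPS 1 the lowest. The 60S genes had -0.12, -0.27 and 0.39 in saline and -0.23, -0.05 and 0.31 in LPS, and the 40S genes -0.05, -0.26 and 0.31 in saline and -0.30, 0.03 and 0.28 in LPS. Both subunits thus had the same lowest and highest array in each group.

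**Figure D3:**
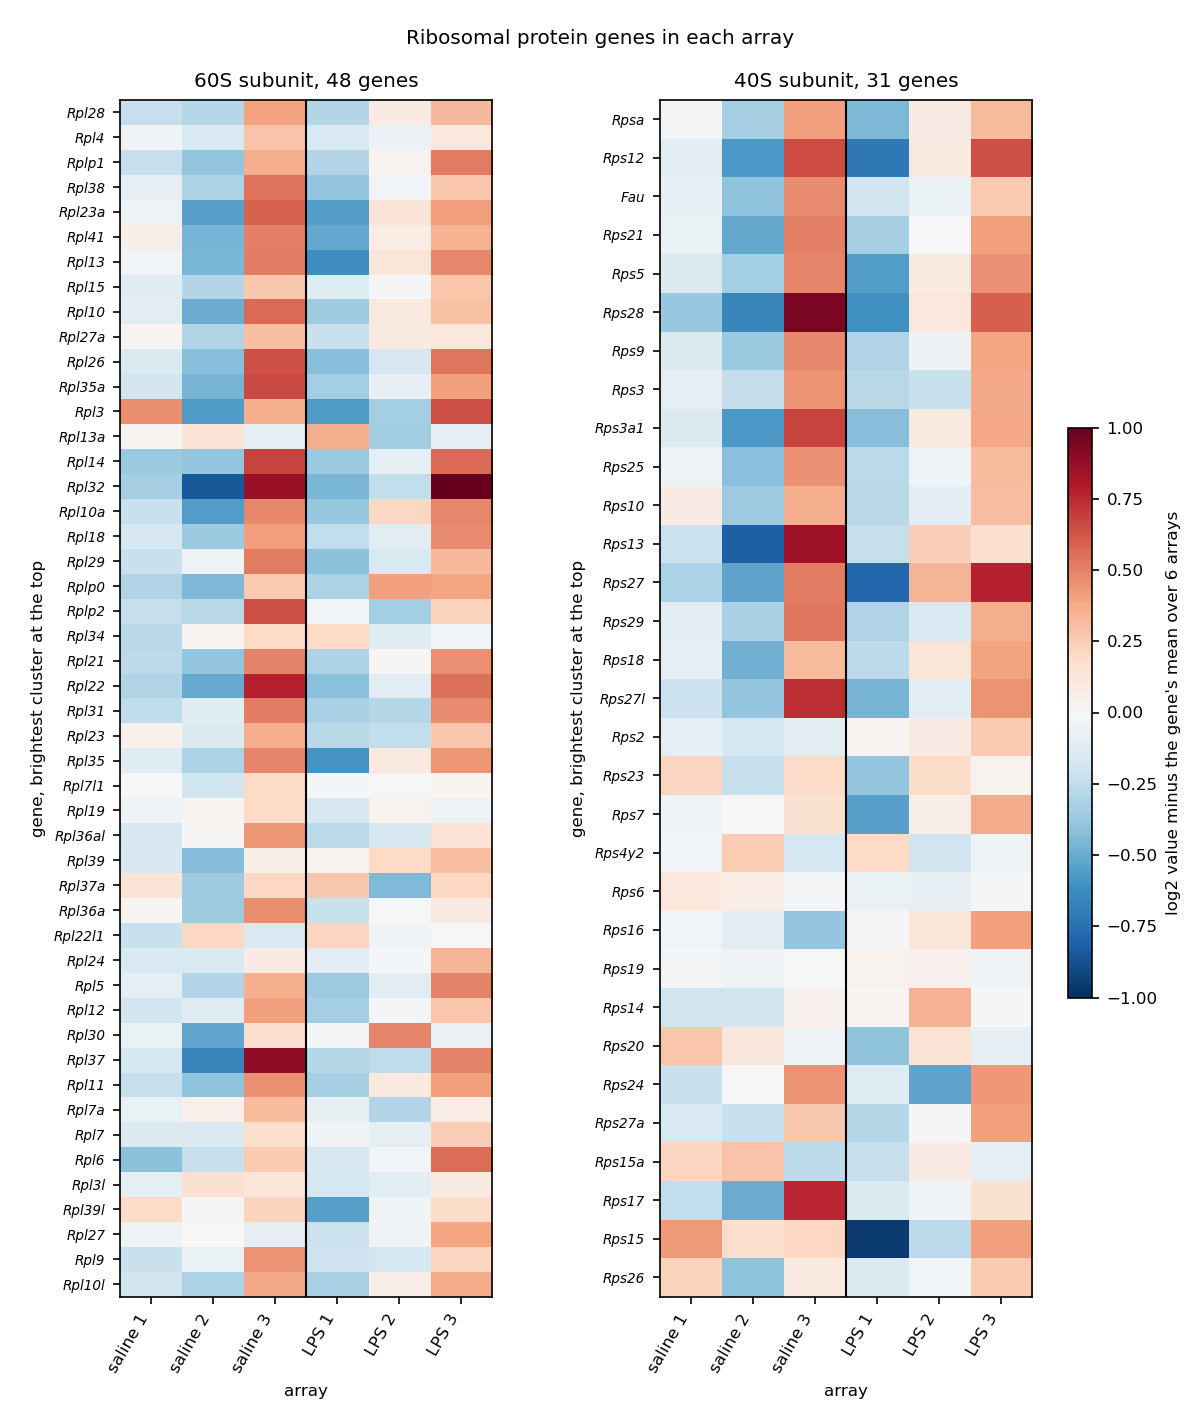
Log2 signal of 79 of the 82 genes in each array minus the gene's mean over 6 arrays (colour, capped at 1 either way), 60S genes on the left and 40S genes on the right, brightest cluster at the top. Red columns at saline 3 and LPS 3 and blue columns at saline 2 and LPS 1 run through most rows, more evenly in the upper rows than in the lower.

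Gene by gene, the array numbered 3 was the highest of its group in both groups in 57 of 82, or 69.5%, against 42.7% of all clusters. It was the lowest of both groups in 0 of 82, against 11.6% of all clusters. Saline 2 and LPS 1 both lay below the other 4 arrays in 45 of 82, or 54.9%, against 13.3% of all clusters. Saline 3 was the highest of the 6 arrays in 48 genes, or 58.5%, against 31.7% of all clusters, and LPS 3 in 19, or 23.2%, against 29.7%. Saline 2 was the lowest in 34 genes, or 41.5%, against 18.4% of all clusters, and LPS 1 in 30, or 36.6%, against 18.9%. These counts describe 6 samples, and no test was made of them.

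The pattern was most even among the brighter clusters. A mean log2 signal of at least 8 was reached by 31 genes, or 37.8%, against 16.5% of all clusters. In these 31 the array numbered 3 was highest in both groups in 28, or 90.3%, against 48.0% of all clusters of that brightness. The deviations of these 31 were -0.11, -0.39 and 0.50 in saline and -0.34, -0.01 and 0.41 in LPS. The 29 genes with a mean under 6, 35.4% of the 82 against 61.3% of all clusters, had -0.06, -0.13 and 0.19 in saline and -0.18, -0.05 and 0.21 in LPS. Rps28 and Rpl32 showed the widest offset of saline 3 from the mean of saline 1 and 2, 1.45 log2 units in each. In LPS 3 the same offset was 0.85 for Rps28 and 1.37 for Rpl32.

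**Figure D4:**
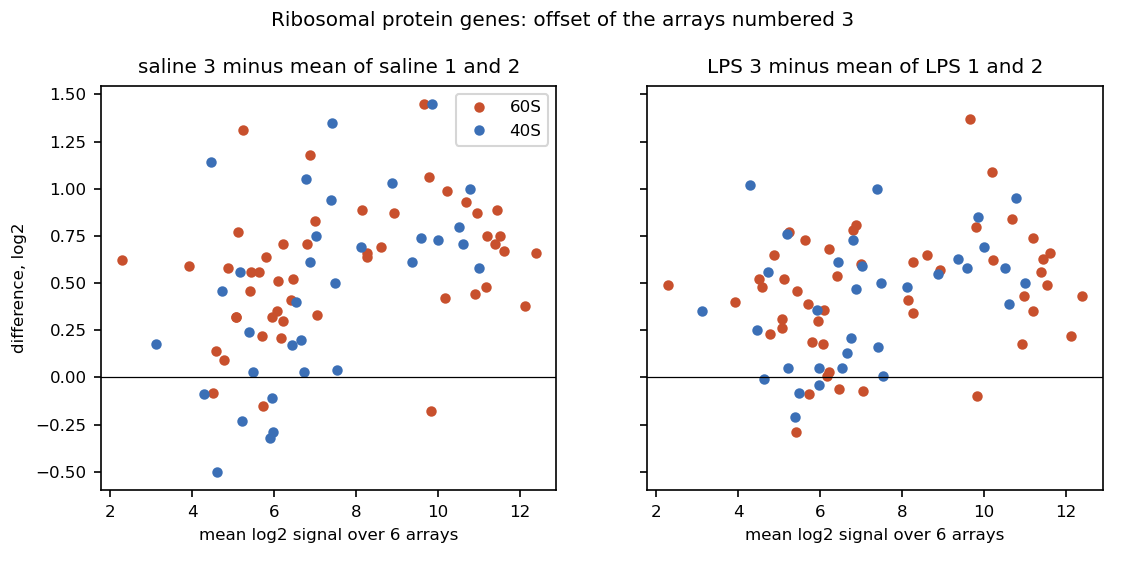
Signal of the array numbered 3 minus the mean of the other 2 arrays of its group (log2, y axis), against the gene's mean log2 signal over 6 arrays (x axis), in saline on the left and LPS on the right, for 60S (orange) and 40S (blue) genes. Of the 82 genes, 73 lie above 0 in each panel, and clusters of mean signal 8 or more lie above 0 with 1 exception, Rpl13a.

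The median offset of the array numbered 3 was 0.58 in saline and 0.48 in LPS for the 82 genes, against 0.17 and 0.20 for all clusters. Other TOP messages, such as those of elongation factors, had offsets of 0.45 and 0.41. Genes of ribosome biogenesis, which work in the nucleolus and are not TOP messages as a class, had -0.03 and -0.07. Neuron markers had -0.28 and -0.22, oligodendrocyte markers 0.30 and 0.25, microglia markers 0.20 and -0.10, astrocyte markers -0.14 and 0.03 and endothelial markers 0.21 and 0.37. Neutrophil markers had 0.07 and 0.49, monocyte markers 0.22 and 0.32, T and B cell markers -0.03 and -0.06 and liver markers 0.10 and 0.15. The part of other cell types, RNA quality or handling in this pattern was not tested. After each array was centred on its median, saline 3 still lay 0.23 and LPS 3 0.10 above the saline mean of the 82 genes, while saline 2 and LPS 1 lay at -0.20 and -0.21.

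**Figure D5:**
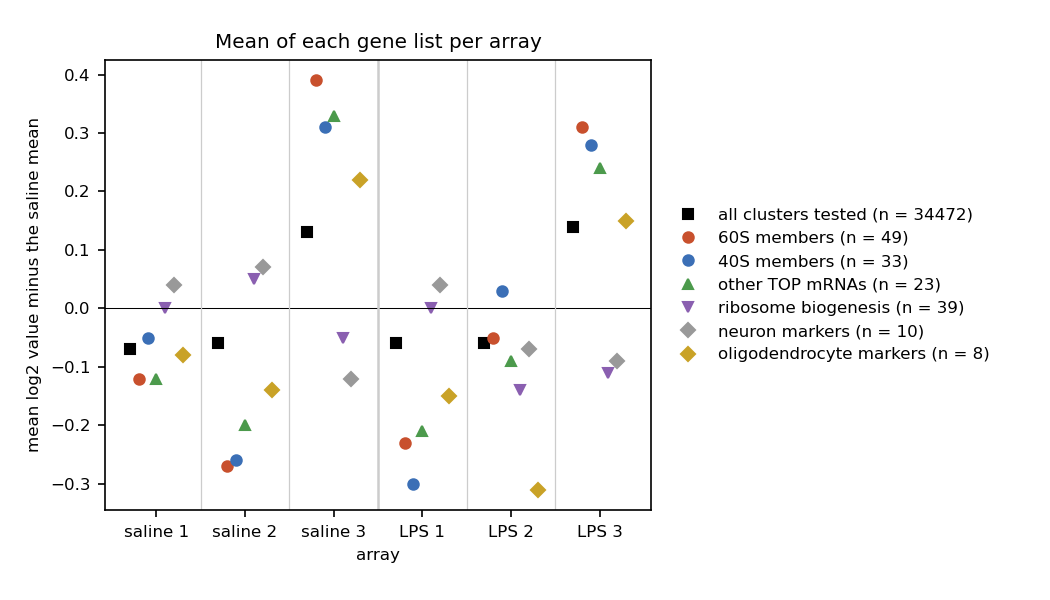
Mean log2 signal of each gene list in each array minus that list's mean over the 3 saline arrays (y axis), for the 60S and 40S genes, all clusters tested, 2 lists fixed for the ribosome and 2 marker lists, 1 point per list and array. The 60S, 40S and other TOP points are highest in saline 3 and LPS 3, where the neuron markers are at -0.12 and -0.09.

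The group difference of the 82 genes moved with the arrays used. The median difference of the 82 genes was 0.20 without saline 3 and 0.15 without LPS 1, and -0.15 without LPS 3 and -0.17 without saline 2. The count of genes with a positive difference was 65 without saline 3, 62 without LPS 1, 15 without LPS 3 and 18 without saline 2. All clusters deviated in the arrays numbered 3 as well, by 0.13 in saline 3 and 0.14 in LPS 3. No share or median over all clusters stands beside these runs, so the shifts were not read as particular to the genes. Without both arrays numbered 3 the median was 0.06 and 47 of 82 differences were positive. With each array left out in turn, 0 of 82 genes passed the adjusted threshold.

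Of the 82 symbols, 28 had more than 1 cluster, up to 5 for Rpl13, which left 41 clusters that were not chosen. In 15 of the 28 the clusters of a symbol did not share the sign of the difference. Among the 41, 1 had an unadjusted limma p under 0.05, or 2.44% against 2.26% of all clusters. This was the second Fau cluster. It read 6.21, 6.61 and 6.20 after saline and 7.11, 6.5 and 6.93 after LPS, a difference of 0.50 ± 0.21 (SE, n = 3). LPS 2 lay below saline 2, so the groups overlapped, and the bright Fau cluster differed by 0.01. The second cluster held a RefSeq accession of Fau and the bright one did not. The Rpl3 clusters also differed from each other in pattern: the bright one read 10.64, 9.61 and 10.54 after saline and 9.61, 9.84 and 10.82 after LPS, and a dimmer one 4.76, 4.66 and 3.91 after saline and 4.79, 4.42 and 4.33 after LPS. Saline 3 was thus near the top in the bright Rpl3 cluster and lowest in the dim one. The dim one held a RefSeq accession of Rpl3 and differed by 0.07 ± 0.25 (SE, n = 3), while the bright one held none.

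Genes that act on ribosomal protein messages or on ribosomes were counted as 4 lists, and no member of any list passed the adjusted threshold. No list was tested as a whole. In the mTOR and TOP control list, 12 of 19 differences were positive, or 63.2% against 49.6% of all clusters, with a median of 0.03. An unadjusted limma p under 0.05 was found for 1 gene, where 2.26% of all clusters had one. This was Ddit4, the stress-induced inhibitor of mTOR complex 1, with 8.05, 8.11 and 7.98 after saline and 8.41, 9.18 and 9.04 after LPS. All LPS arrays were above all saline arrays, as in 3.61% of all clusters, and the difference was 0.83 ± 0.22 (SE, limma adjusted p = 1.0). Sesn1, another mTOR inhibitor, differed by 0.42 ± 0.20, Larp1, the binder of TOP messages, by -0.12 ± 0.21 and Rptor, the scaffold of mTOR complex 1, by -0.11 ± 0.17 (SE, n = 3).

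Among the other TOP messages, 10 of 23 differences were positive, or 43.5% against 49.6% of all clusters, with a median of -0.03. An unadjusted limma p under 0.05 was found for 0 of them, where 2.26% of all clusters had one. Snhg5, a host of small nucleolar RNAs, differed by 0.63 ± 0.57 and Pabpc1, the poly(A)-binding protein, by 0.27 ± 0.21 (SE, n = 3). Npm1, a nucleolar chaperone, differed by -0.42 ± 0.25 and Nap1l1, a histone chaperone, by -0.23 ± 0.15 (SE, n = 3). Their median of -0.03 and the 0.00 of the ribosomal protein genes were both near that of all clusters.

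In the ribosome biogenesis list 8 of 39 differences were positive, or 20.5% against 49.6% of all clusters, with a median of -0.06. In the negative direction 1 gene had an unadjusted limma p under 0.05, where 0.772% of all clusters had one. That gene was Mycn, a growth-promoting transcription factor, at -0.54 ± 0.21 (SE, limma adjusted p = 1.0), with 6.53, 6.34 and 6.05 after saline and 6.08, 5.79 and 5.43 after LPS. LPS 1 lay just above saline 3, so the groups overlapped. Ltv1, a 40S assembly factor, differed by -0.38 ± 0.19, Eif6, which keeps 60S subunits from joining too early, by 0.15 ± 0.18 and Myc by 0.13 ± 0.20 (SE, n = 3).

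In the list of ribosome quality control and dormancy 5 of 15 differences were positive, or 33.3% against 49.6% of all clusters, with a median of -0.01. Eif2ak2, the interferon-induced kinase PKR that blocks initiation on sensing double-stranded RNA, read 5.17, 5.28 and 5.15 after saline and 6.14, 5.91 and 6.51 after LPS. All LPS arrays were above all saline arrays, as in 3.61% of all clusters, a difference of 0.99 ± 0.19 (SE, limma adjusted p = 0.567). Eif2ak2 was the only gene of the list under an unadjusted limma p of 0.05, against 2.26% of all clusters. Eif2ak4, the amino acid sensor GCN2, differed by 0.15 ± 0.21, Nemf, which acts on stalled 60S subunits, by -0.18 ± 0.28 and Abce1, which splits terminated ribosomes, by -0.13 ± 0.16 (SE, n = 3). Ddit4 and Eif2ak2 had the greatest differences of their lists.

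The authors' deposited table gave 2 of the 82 genes a p-value under 0.05, among them Rps2 with 0.0336, where 3.13% of all clusters had one. The adjusted p in the authors' deposited table was 0.9999 for Rps2. The authors' deposited table held its extreme folds of these genes for Rpl3, at -1.78, and Rplp0, at 1.66. These folds come from averages that down-weight arrays far from the centre: for Rpl3 the authors' deposited table gave averages of 9.76 after LPS and 10.59 after saline, while the plain mean difference of the same arrays was -0.18. In Rpl3 the array furthest from the other 2 of its group was LPS 3 after LPS and saline 2 after saline.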

How the data were processed

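RNA from the pull-down was measured on Affymetrix MoGene-2_0-st arrays. The deposited value table holds log2 signals from the authors' RMA run, for which the submitters' processing notes name Affymetrix Expression Console. RMA subtracts background, equalises arrays and summarises probes, and compresses differences of dim clusters. The authors' deposited comparison table, made with Transcriptome Analysis Console (3.0 per the series' design text), gives log2 bi-weight averages, a signed linear fold, a p-value and its adjusted p-value, per the file headers. No source used here names the genome build.

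Differences are LPS minus saline from limma 3.58.1 in R 4.3.3 (lmFit, eBayes, group only), with Benjamini-Hochberg adjustment over 34472 clusters and a threshold of 0.05. The code was tested on simulated data. An exact two-sided permutation test of 3 against 3 arrays cannot go below p = 0.1, and 6 arrays limit the precision.

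Deviations from group means correlated over all clusters by 0.27, 0.12 and 0.56 for numbers 1, 2 and 3, above the criterion of 0.1 for a pairing. Saline 2 with LPS 1, at 0.41, and saline 1 with LPS 2, at 0.14, were also above it, so it does not single out same-numbered arrays. What the numbers mark is not stated.

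The members, lists and named-gene rule were chosen with earlier results of these data known. The rule named the 10 greatest differences each way, the 5 brightest and 5 dimmest clusters, genes with listed roles, and at most 2 each way from the other lists. Of the listed genes Castor1, Hnrnpa1, Znf598, Zak and Chil3 were not matched by symbol. Rps12, Rps28, Rps4y2, Rpl13, Rpl14, Rpl24 and Rpl31 were named after their values were seen. Values of 3 of the 82 genes are not reported here singly, though they are in every count. Start windows came from RefSeq. Alternatives changed the test, the scaling, the cluster per symbol and the arrays used.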

Additional observations from a re-analysis of the deposited data

How the results depend on the processing

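No alternative brought any of the 82 genes past the adjusted threshold, and the lowest adjusted p of a member over 21 settings was 0.495. Over all clusters the count past the threshold was 1 as reported, 3 with the replicate block, 22 with array weights, 2 without both arrays numbered 3, 0 with the unmoderated test, 0 over all clusters of the value table, and 0 to 12 as single arrays were left out. The median difference of the 82 genes ran from -0.17 to 0.20 as single arrays were left out and was 0.00 with the replicate block, 0.06 with array weights and -0.03 with arrays centred on their medians. The count of positive differences ran from 15 to 65 as single arrays were left out. It was 27 among clusters of mean log2 at least 6 and 14 among the 28 genes whose description names 1 gene, an alternative chosen after seeing the data, and both settings hold fewer genes. Genes with all LPS arrays above saline numbered 5 with quantile normalization repeated and 0 among those described as 1 gene. Genes with all LPS arrays below saline numbered 3 with quantile normalization repeated, 3 with arrays centred, 2 with the lowest cluster of each symbol, 2 with clusters holding their own RefSeq accession (also chosen after seeing the data), 0 at a mean of at least 6 and 0 among those described as 1 gene. The shares over all clusters, 3.61% above and 3.1% below, are of the run as reported, so these counts have none beside them. The medians and counts of positive differences in the alternative runs have none either. The cause of the shifts between settings was not tested. The precision is limited by 3 arrays per group and by clusters shared with near-identical gene copies.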

Other observations

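Clusters that name a small nucleolar RNA inside a ribosomal protein gene were set beside the rest, a choice made after the values were seen, and no test was made. Among the 123 clusters, 10 named one, 3 of them from Rpl13a, with others from Rpl13, Rpl27a, Rpl5, Rplp2, Rps12 and Rps3. In LPS 3 the median offset from LPS 1 and 2 was -0.07 in these 10, with 6 of 10 negative, and 0.46 in the other 113, with 17 negative. In saline 3 it was 0.14 with 4 of 10 negative against 0.58 with 14 of 113 negative. The Rpl13 cluster of this kind read 6.69, 6.73 and 6.26 after saline and 6.92, 6.05 and 5.46 after LPS, while the chosen Rpl13 cluster read 11.17, 10.74 and 11.71 after saline and 10.58, 11.32 and 11.68 after LPS. In Rpl13 the array numbered 3 was thus the lowest of its group in the first and the highest in the second.

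Genes of the mitochondrial ribosome, 71 in number, and 85 genes of the respiratory chain and ATP synthase, also chosen after values were seen, had positive offsets of the arrays numbered 3 as well. The median offset was 0.33 in saline and 0.21 in LPS for the mitochondrial ribosome, and 0.40 and 0.22 for the respiratory chain. Their median LPS minus saline differences were -0.09 and -0.08, with 10 of 71 and 17 of 85 positive. The cytosolic ribosomal protein genes had 0.00 and 42 of 82. Over all clusters 49.6% of differences were positive. The share was 43.4% among clusters of mean log2 signal 6 to 8 and 41.9% among those of at least 8, with a median of -0.02 in each. Whether either list differed from clusters of like brightness was not tested. By limma 0 of either list passed the adjusted threshold. An unadjusted limma p under 0.05 was found for 1 mitochondrial ribosomal gene and 0 respiratory genes, where 2.26% of all clusters had one.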
